A study of Homo sapiens with 6 samples.

Results

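The genes described here are the ZNF zinc finger genes of human chromosome 19. A gene was taken where a probe set with a single gene symbol read it, its current symbol was ZNF followed by a number and at most 1 letter, and RefSeq places it on chromosome 19. Where a gene had more than 1 such probe set, the one that was brightest on average was kept. This gave 138 of the 11584 genes tested. They comprised 137 protein-coding genes and the transcribed pseudogene ZNF542P. RefSeq lists 246 protein-coding genes of this symbol pattern on the chromosome, and the other 109 were not analysed here. The genes were thus chosen by symbol and chromosome, and earlier results of these data were known when this was done. No sequence of the proteins was used to check that each carries zinc fingers.

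RNA was measured on 6 Affymetrix arrays, 2 in each of 3 groups. All cells were HEK293 T-REx Flp-In, a human embryonic kidney line, and carried FLAG/HA-tagged LIN28B under doxycycline control. The groups were cells transfected with siRNA against LIN28B and not induced (the knockdown), mock-transfected cells induced with doxycycline, and mock-transfected cells not induced. No array used here holds a non-targeting siRNA, so siRNA transfection and loss of LIN28B cannot be told apart. The labels do not say whether the 2 arrays of a group came from separate cultures, and p-values therefore cover the spread between these arrays only, which may be technical. In bulk RNA, less RNA per cell and fewer cells of a kind also cannot be told apart.

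Most ZNF genes of chromosome 19 encode proteins of the KRAB zinc finger family. Such a protein binds DNA through a row of C2H2 zinc fingers and calls in the corepressor TRIM28 through its KRAB domain. TRIM28 then brings SETDB1, a histone methyltransferase, and heterochromatin proteins, and the target is silenced. Many of the targets are transposable elements. The genes lie in clusters that arose by tandem duplication, so neighbours are often close in sequence. LIN28B, the gene targeted here, encodes a protein that binds RNA and keeps let-7 microRNAs from maturing. Only its RNA was measured here.

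Values are the deposited log2 values per probe set. LIN28B itself read 7.51 and 7.53 on the knockdown arrays, 10.15 and 10.11 on the induced mock arrays, and 10.02 and 9.85 on the mock arrays not induced. Within a group the arrays had r = 0.9899 to 0.9937 over probe sets, and knockdown with mock arrays at 0.97 to 0.9745. Of 10 marker genes of the HEK293 line 7 were in the table. The epithelial genes KRT18 and EPCAM read from 9.94 to 10.8 on every array and the neuronal gene NEFL from 9.92 to 10.6. KRT8 read 7.71 to 8.25 and CDH2 7.55 to 7.84. KRT19 and LHX1 were lower, at 5.72 to 6.71 and 4.84 to 5.86. PAX2, CDH1 and NEFM had no single-symbol probe set in the table. Of the markers of other cells, COL1A1, CD79A and HBB read between 4.93 and 6.28, a range that KRT19 and LHX1 overlapped. VIM, which HEK293 cells also express, read 12.4 to 12.7. The pluripotency genes SOX2 and KLF4 read 7.38 to 7.85 and 6.07 to 6.93. Only 2 of 8 listed fibroblast genes, 2 of 5 blood genes and 2 of 4 pluripotency genes were in the table. The pluripotency genes POU5F1 and NANOG were missing. NEFL, KRT19, VIM and the pluripotency gene KLF4 fell and EPCAM, KRT8 and LHX1 rose in the knockdown, by 0.18 to 0.71 on the log2 scale. Their part in the results below was not tested.

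The main comparison set LIN28B siRNA against mock cells not induced. Far more of the chromosome 19 ZNF genes rose than fell. By limma, with Benjamini-Hochberg adjustment over all genes and an adjusted p under 0.05, 42 of 138 rose, 3 fell and 93 did not pass. Over all genes tested 28.0% were called, with 13.5% higher and 14.5% lower. Among the chromosome 19 ZNF genes 32.6% were called, with 30.4% higher and 2.17% lower. The share called in either direction was thus near that of all genes. The split between directions was 42 to 3 here and 1563 to 1679 over all genes. The median log2 fold change was 0.26 for the chromosome 19 ZNF genes and 0.01 for all genes, and 106 of 138 lay above 0. The 42 rises ranged from 0.33 to 1.09, with a median of 0.63, so that most were below 2-fold.

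The shift was present on both knockdown arrays. Each gene was set against its own mean over the 4 mock arrays, and the median over the 138 genes was taken on each array. It was 0.25 and 0.27 on the knockdown arrays, 0.03 and -0.01 on the induced mock arrays, and 0.06 and -0.07 on the mock arrays not induced. The mock arrays make up the mean they are set against, which draws their values toward 0. Over all genes the same medians lay between -0.01 and 0.01. Both knockdown arrays lay above all 4 mock arrays for 70 of the 138 genes, against 27.1% of all genes. They lay below all 4 for 10 genes, against 26.0% of all genes.

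**Figure D1:**
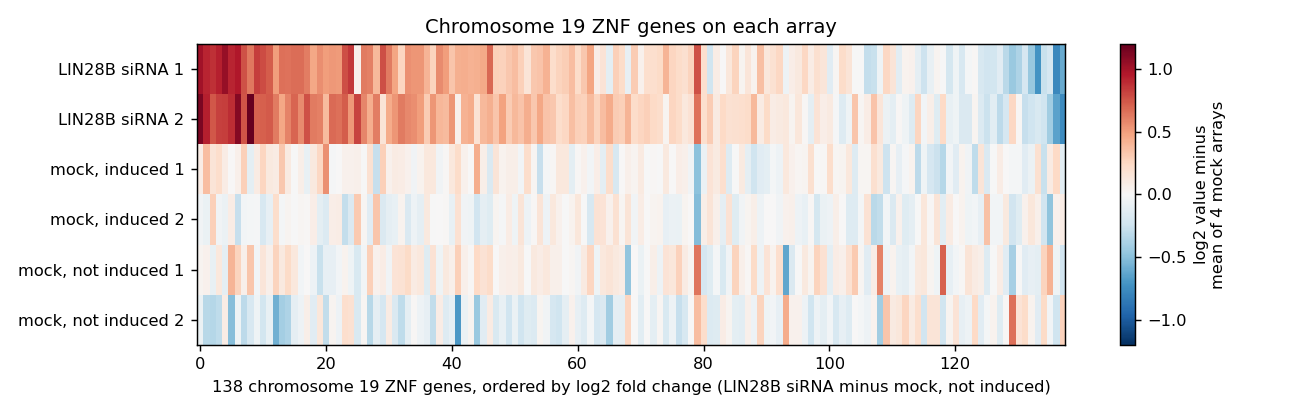
Each column is 1 of the 138 chromosome 19 ZNF genes, ordered by log2 fold change, and each row is an array; the colour gives the log2 value minus the gene's mean over the 4 mock arrays. Both knockdown rows are red over most columns, with medians of 0.25 and 0.27. The 4 mock rows have medians from -0.07 to 0.06, and lie near 0 in part because they make up the mean that is subtracted.

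ZNF559, a KRAB zinc finger gene, had the largest rise. It read 8.05 and 8.17 on the knockdown arrays, 7.13 and 7.00 on the induced mock arrays, and 7.07 and 6.97 on the mock arrays not induced. The arrays of each mock group lay close together and about 1 log2 unit below both knockdown arrays. The log2 fold change against mock not induced was 1.09 (SE 0.11, 95% interval 0.85 to 1.33, limma adjusted p = 0.000145).

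ZNF564 and ZNF709 lie in the same cluster of KRAB zinc finger genes and rose by nearly the same amount. ZNF564 read 7.09 and 7.11 in the knockdown, 6.55 and 6.10 in induced mock cells, and 6.23 and 5.85 in mock cells not induced (log2 fold change 1.06, SE 0.18). ZNF709 read 7.51 and 7.41 in the knockdown, 6.80 and 6.54 in induced mock cells, and 6.71 and 6.28 in mock cells not induced (log2 fold change 0.96, SE 0.16). In both genes the knockdown arrays agreed closely while the arrays within each mock group lay further apart, below both.

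ZNF345 was the only gene beside ZNF559 and ZNF564 whose rise reached 2-fold. It read 5.38 and 5.25 in the knockdown, 4.66 and 4.79 in induced mock cells, and 4.42 and 4.16 in mock cells not induced, with a log2 fold change of 1.03 (SE 0.19). All mock values lay under 5, in the lowest part of the scale. ZNF418, with 5.14 and 5.08 in the knockdown against 4.41, 4.07, 4.40 and 4.56 on the mock arrays, had the same form and rose by 0.63 (SE 0.20). The call of ZNF418 was lost when any 1 of the 4 arrays compared was left out, with the replicate block (limma adjusted p = 0.0531) and with quantile normalization (limma adjusted p = 0.0597). ZNF418 and ZNF345 were above 5 on the knockdown arrays only. Nearly all probe sets in the table lay above 5 on at least 2 arrays. Genes such as these 2 would enter the table through the knockdown arrays and could be seen only as rises. Of the 138 genes 4 were above 5 on fewer than 2 mock arrays, and 3 of these rose.

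ZNF91 encodes a KRAB protein that represses SVA retrotransposons. It read 5.87 and 5.86 in the knockdown, 5.39 and 5.07 in induced mock cells, and 5.16 and 4.79 in mock cells not induced. Both knockdown arrays were above every mock array, and the gene rose by 0.89 (SE 0.19, 95% interval 0.47 to 1.31, limma adjusted p = 0.00669). ZNF708 and ZNF85, in the same cluster, rose by 0.95 (SE 0.26) and 0.71 (SE 0.22). Their probe sets end in _x_at, a sign that they may bind RNA of close relatives, and both calls depend on the settings. With no intensity trend and all arrays kept, the limma adjusted p was 0.0531 for ZNF708 and 0.0513 for ZNF85. Without mock not induced replicate 2 the log2 fold changes were 0.49 for ZNF708 and 0.45 for ZNF85, with limma adjusted p = 0.086 and 0.206. Both also lost their calls without either knockdown array, at limma adjusted p between 0.0947 and 0.111 for ZNF708 and between 0.092 and 0.197 for ZNF85.

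ZNF780B, a KRAB zinc finger gene, read 6.82 and 6.60 in the knockdown, 5.86 and 5.71 in induced mock cells, and 5.66 and 5.86 in mock cells not induced, and rose by 0.95 (SE 0.15). Its neighbour ZNF780A read 6.97 and 6.89 in the knockdown, 6.69 and 6.55 in induced mock cells, and 6.96 and 6.59 in mock cells not induced. There the knockdown overlapped the mock cells not induced, and the difference of 0.16 did not pass (limma adjusted p = 0.456). ZNF780A was picked after its values were seen.

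ZNF667, whose rat counterpart was described as protective in heart muscle cells, read 6.31 and 6.19 in the knockdown, 5.58 and 5.47 in induced mock cells, and 5.45 and 5.43 in mock cells not induced. The 4 mock arrays lay close together and the knockdown arrays lay clear above them, with a log2 fold change of 0.81 (SE 0.14). ZNF419, a gene known as a source of a minor histocompatibility antigen, read 8.14 and 8.16 in the knockdown, 7.46 and 7.45 in induced mock cells, and 7.59 and 7.35 in mock cells not induced. It rose by 0.68 (SE 0.11). ZNF850 read 7.31 and 7.32 in the knockdown, 6.70 and 6.49 in induced mock cells, and 6.65 and 6.49 in mock cells not induced, and rose by 0.74 (SE 0.12). In each of these genes the knockdown arrays lay close together and above every mock array.

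The pseudogene ZNF542P read 6.69 and 6.83 in the knockdown, 5.79 and 5.45 in induced mock cells, and 5.99 and 5.68 in mock cells not induced, a rise of 0.93 (SE 0.17). Both knockdown arrays lay above all mock arrays. ZNF112 rose by 0.86 (SE 0.21), ZNF136 by 0.79 (SE 0.17) and ZNF223 by 0.70 (SE 0.18). For ZNF112 the knockdown arrays were far apart, at 7.73 and 8.33, against 6.99 and 7.08 in induced mock cells and 7.44 and 6.91 in mock cells not induced. The log2 fold change of ZNF112 was 0.56 without knockdown replicate 2 (limma adjusted p = 0.106) and 0.59 without mock not induced replicate 2 (limma adjusted p = 0.0638). ZNF223 had 0.40 without mock not induced replicate 2 (limma adjusted p = 0.0567), and also lost its call without either knockdown array. ZNF136 lost its call without knockdown replicate 1 (0.75, limma adjusted p = 0.0671).

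**Figure D2:**
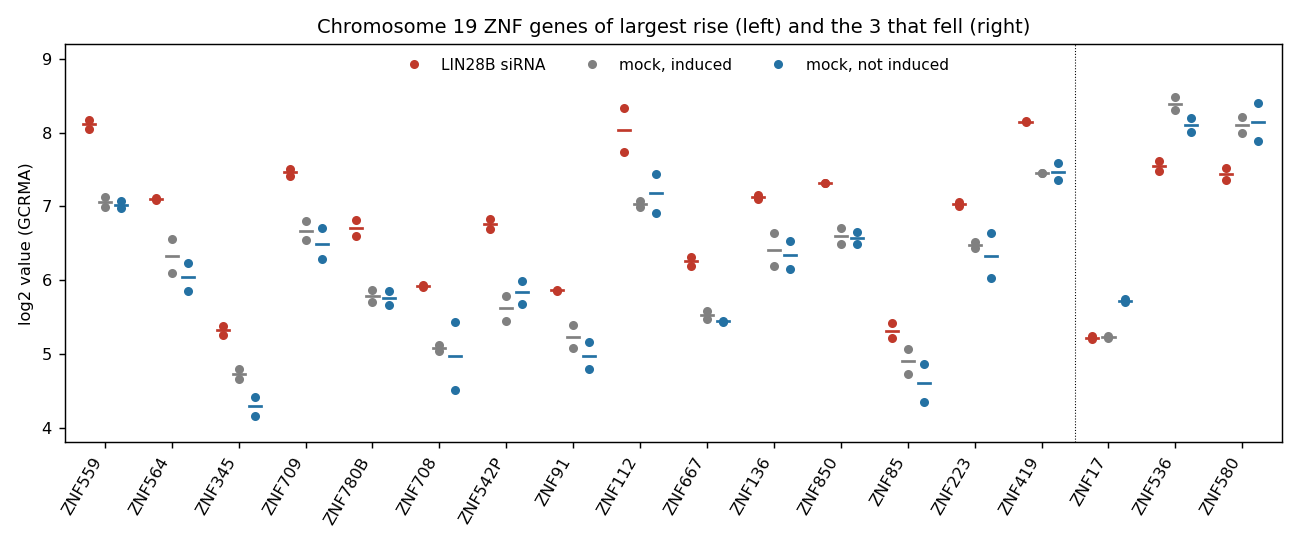
The log2 values of 15 genes of largest rise and of the 3 genes that fell are plotted as 1 point per array, with a line at the mean of each group of 2 arrays. In the 15 genes at the left the knockdown points lie above all mock points, and ZNF17 at the right differs from the mock cells not induced only.

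Only 3 chromosome 19 ZNF genes fell against mock cells not induced. ZNF580, which encodes a small zinc finger protein described in endothelial cells, read 7.52 and 7.36 in the knockdown, 7.99 and 8.21 in induced mock cells, and 7.88 and 8.39 in mock cells not induced. Its log2 fold change was -0.70 (SE 0.16), and -0.62 with limma adjusted p = 0.0729 without knockdown replicate 2. ZNF536, a regulator of neuronal differentiation, read 7.48 and 7.61 in the knockdown, 8.49 and 8.30 in induced mock cells, and 8.20 and 8.01 in mock cells not induced. It fell by 0.56 (SE 0.11, limma adjusted p = 0.0043).

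ZNF17 was low in 2 of the 3 groups. It read 5.21 and 5.24 in the knockdown, 5.21 and 5.25 in induced mock cells, and 5.74 and 5.70 in mock cells not induced. The knockdown and the induced mock cells overlapped, so the fall of 0.50 (SE 0.15, limma adjusted p = 0.0329) was a difference from the mock cells not induced alone. It was -0.26 with limma adjusted p = 0.16 against all 4 mock arrays, and lost its call when any 1 of the 4 arrays compared was left out (-0.48 to -0.52).

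Of 13 genes of the family with a described role 9 were in the table. Of these 9 only ZNF91 was called, too few to set against the 28.0% called over all genes. ZNF274, which brings SETDB1 and TRIM28 to the ends of ZNF genes themselves, read 8.07 and 8.06 in the knockdown, 7.85 and 7.89 in induced mock cells, and 7.78 and 7.87 in mock cells not induced. Its difference of 0.24 (95% interval 0.04 to 0.44, limma adjusted p = 0.0755) did not pass, though both knockdown arrays lay above all mock arrays. It passed with the arrays centred on their medians (0.27, limma adjusted p = 0.0499).

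The imprinted gene ZNF331 had a difference of 0.25, and ZNF304, described in the silencing of tumour suppressor genes, had 0.37, both with intervals above 0 and adjusted p of 0.0965 and 0.0827 by limma. ZNF224, a repressor of the aldolase A gene, had 0.18, ZNF160 had 0.10 and ZNF558 had 0.05. ZNF146, a protein made up almost wholly of zinc fingers, had -0.20 and the repressor gene ZNF382 had -0.15. The intervals of these 5 differences included 0, with bounds between -0.58 and 0.44. ZNF146 was called lower with the replicate block (-0.20, limma adjusted p = 0.0466) and without mock not induced replicate 2 (-0.32, limma adjusted p = 0.0327).

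Other genes lay just short of the threshold. ZNF468 had 0.71, ZNF302 had 0.24 and ZNF230 had 0.41, with adjusted p of 0.0516, 0.0518 and 0.0532 by limma. All 3 passed with centred arrays, with the replicate block and without mock not induced replicate 1, where ZNF468 had 1.14 (limma adjusted p = 0.00253). With the block the limma adjusted p was 0.0439 for ZNF468, 0.0498 for ZNF302 and 0.0322 for ZNF230. ZNF302 and ZNF230 also passed with quantile normalization, the stricter filter and all 4 mock arrays. Near 0 were ZNF587 with -0.0008 (95% interval -0.32 to 0.31), ZNF576 with 0.01 (-0.19 to 0.20) and ZNF615 with 0.01 (-0.31 to 0.33). ZNF576 read 8.01 and 8.04 in the knockdown, 8.04 and 8.00 in induced mock cells, and 8.04 and 7.99 in mock cells not induced, and the 3 groups overlapped.

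Rises occurred at all levels of signal. The 138 genes had mean log2 values from 4.61 (ZNF418) to 9.62 (ZNF146), with a median of 6.69, against 7.16 for all genes. All genes were split by mean level into 3 bins of equal size. In the lowest bin 13 of 56 chromosome 19 ZNF genes rose and 1 fell, where 7.82% of all genes rose. Among the 13 were ZNF345, ZNF418 and ZNF85, which were above 5 on fewer than 2 mock arrays. In the middle bin 22 of 61 rose and 1 fell, where 10.8% of all genes rose, and in the highest bin 7 of 21 rose and 1 fell, where 21.9% of all genes rose. ZNF227, among the 3 highest, read 9.87 and 9.85 in the knockdown, 9.49 and 9.39 in induced mock cells, and 9.49 and 9.36 in mock cells not induced. Its rise of 0.43 had an SE of 0.07.

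Probe sets ending in _x_at or _s_at, which may bind RNA of close relatives, stood for 42 of the 138 genes. Of these 42, 16 rose and 2 fell. Of all 3941 genes tested with such probe sets, 540 rose (13.7%) and 564 fell. Of the other 96 chromosome 19 ZNF genes, 26 rose and 1 fell, with a median log2 fold change of 0.25. Of all 7643 genes tested with other probe sets, 1023 rose (13.4%) and 1115 fell. When probe sets ending in _x_at or _s_at were left out before the fit, 98 chromosome 19 ZNF genes remained, of which 26 rose (26.5%) and 1 fell. Of all genes 13.3% rose in that fit. For ZNF493 and ZNF791, the 2 genes with a pair of single-symbol probe sets, both sets lay above 0: the difference of means was 0.52 and 0.47 for ZNF493 and 0.21 and 0.14 for ZNF791.

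Compared with other genes, the chromosome 19 ZNF genes held a larger share of rises than ZNF genes elsewhere, as a count and without a test of the difference between the sets. Of 179 ZNF genes on other chromosomes 23 rose and 13 fell (12.8% and 7.26%), with a median of 0.06. Of 673 chromosome 19 genes with other symbols 68 rose and 57 fell (10.1% and 8.47%), with a median of 0.02. These sets have median levels of 6.73 and 6.63, close to the 6.69 of the chromosome 19 ZNF genes.

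**Figure D3:**
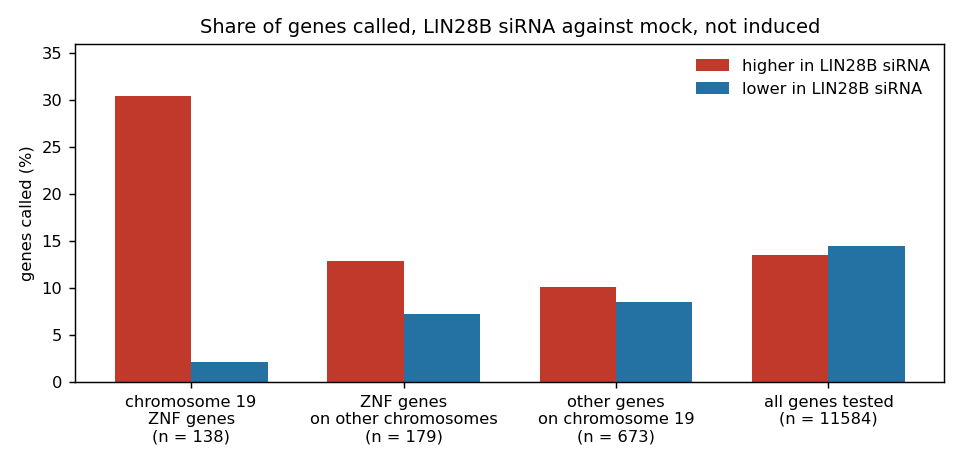
Bars give the percentage of genes called higher and lower in LIN28B siRNA cells against mock cells not induced, for 4 sets of genes. The chromosome 19 ZNF genes show 30.4% higher and 2.17% lower, and all genes tested show 13.5% and 14.5%.

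The rises were spread over the chromosome. RefSeq's order of genes was used to group ZNF genes into runs with at most 2 other protein-coding genes between neighbours, and 7 runs held 5 or more measured genes. The median log2 fold change was above 0 in all 7, and 6 of the 7 held rises. Together the 7 runs held 101 genes, of which 35 rose and 2 fell, and 7 of the other 37 rose. The share of rises per run lay between 0 and 62.5%, against 13.5% of all genes, and with so few genes in a run no difference was tested.

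In the run from ZNF14 to ZNF254, which holds ZNF91, all 8 measured genes lay above 0 and 5 rose (ZNF14, ZNF85, ZNF708, ZNF100 and ZNF91), with a median of 0.64. RefSeq lists 37 ZNF genes there, so most of that run was not analysed here. ZNF14 read 7.01 and 6.89 in the knockdown and 7.06 on induced mock replicate 1, so these groups overlapped. Against the induced mock cells ZNF14 (0.25), ZNF100 (0.52) and ZNF85 (0.42) did not pass, with limma adjusted p = 0.401, 0.0848 and 0.2. ZNF708 and ZNF91 were called higher in that comparison too. In the run from ZNF283 to ZNF180, 8 of 16 rose and 0 fell, with a median of 0.41. ZNF222 rose by 0.65 (SE 0.09), ZNF180 by 0.64 (SE 0.10), ZNF284 by 0.63 (SE 0.10) and ZNF226 by 0.41 (SE 0.08), beside ZNF112, ZNF223, ZNF155 and ZNF227. At the start of the same run ZNF404 had -0.32 and did not pass (limma adjusted p = 0.16).

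In the run from ZNF264 to ZNF8, 10 of 25 rose and 1 fell, with a median of 0.33. ZNF548 rose by 0.66, ZNF264 by 0.63, ZNF805 by 0.62 and ZNF329 by 0.62, while ZNF17 in their midst fell. In the run from ZNF565 to ZNF573, 6 of 21 rose and 0 fell, with a median of 0.13, among them ZNF345, ZNF850, ZNF567 (0.51) and ZNF420 (0.50). In the run from ZNF627 to ZNF791, 3 of 10 rose (ZNF136, ZNF709 and ZNF564). In the run from ZNF577 to ZNF331, 3 of 15 rose (ZNF766, ZNF611 and ZNF765), which is 20% and nearest to the 13.5% of all genes among the runs with a rise. The run from ZNF579 to ZNF580 held 0 rises among 6 genes and 1 fall, in ZNF580, with a median of 0.03. The genes named for these runs beyond the largest changes were picked after their values were seen.

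Neighbours did not always move alike. Among 63 pairs of measured genes with no protein-coding gene between them, both rose in 7, 1 of the pair rose in 21 and neither rose in 35. Across these pairs the log2 fold changes correlated at r = 0.30 (Spearman 0.37). The pairs share arrays, some share a gene, and probe sets of close relatives may share sequence, so this is a description only.

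**Figure D4:**
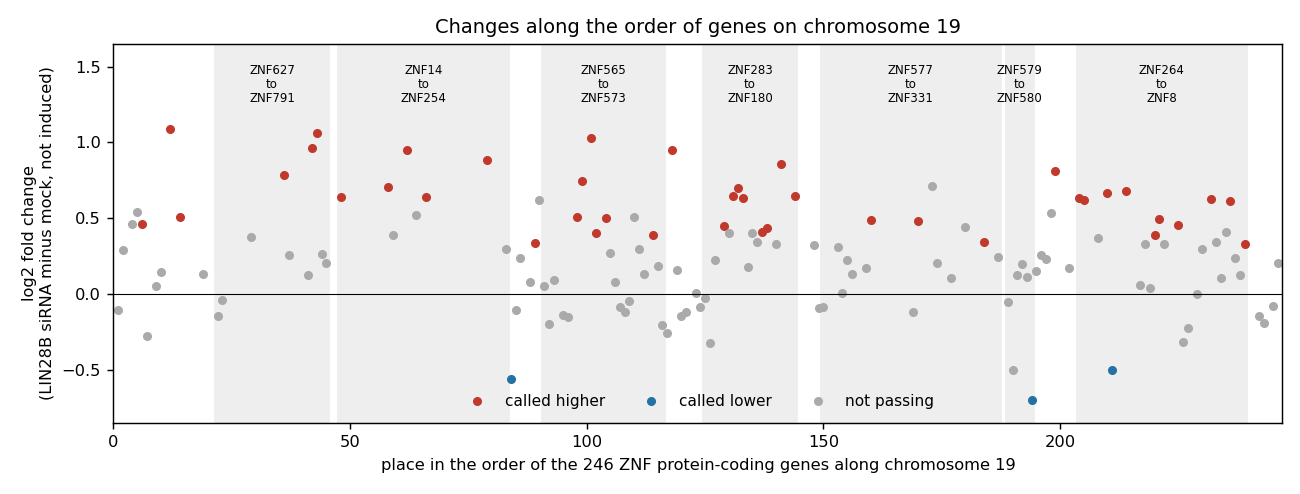
Each point is a gene, placed by its rank in the order of 246 ZNF protein-coding genes along chromosome 19 (x axis), with its log2 fold change in LIN28B siRNA cells against mock cells not induced (y axis). Grey bands mark the 7 runs with 5 or more measured genes; red points, called higher, occur in 6 of the 7.

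Promoters of these genes were looked at after it was seen that 42 of them rose and 3 fell. Promoter sequences from RefSeq on GRCh38.p14 were matched by gene identifier for 127 of the 138 genes, and the 250 bases before the gene start were read. Shown first are the 4 largest rises that matched, then ZNF850 and ZNF180, the 2 next whose promoter holds both parts of a ZNF143 motif with a fixed gap, and last ZNF580, the largest fall. ZNF143 is a transcription factor of many housekeeping promoters. Capitals mark matches on either strand to 4 motifs. The ETS core, bound by ETS factors, is CCGGAAG. The left part of the ZNF143 motif is ACTACA, and its right part is spelled TTCCCAG. The CCAAT box, which the factor NF-Y binds, was searched as CCAATCA. The windows are chr19:12551483-12551732 (minus strand) for ZNF564, chr19:36850115-36850364 (plus) for ZNF345, chr19:12484817-12485066 (minus) for ZNF709, chr19:40056232-40056481 (minus) for ZNF780B, chr19:36772808-36773057 (minus) for ZNF850, chr19:44500523-44500772 (minus) for ZNF180 and chr19:55640752-55641001 (plus) for ZNF580.
ZNF564: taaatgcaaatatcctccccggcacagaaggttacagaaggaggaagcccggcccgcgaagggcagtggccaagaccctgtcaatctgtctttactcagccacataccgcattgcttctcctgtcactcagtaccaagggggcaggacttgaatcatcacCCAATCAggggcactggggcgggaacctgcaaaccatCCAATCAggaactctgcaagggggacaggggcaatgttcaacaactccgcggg
ZNF345: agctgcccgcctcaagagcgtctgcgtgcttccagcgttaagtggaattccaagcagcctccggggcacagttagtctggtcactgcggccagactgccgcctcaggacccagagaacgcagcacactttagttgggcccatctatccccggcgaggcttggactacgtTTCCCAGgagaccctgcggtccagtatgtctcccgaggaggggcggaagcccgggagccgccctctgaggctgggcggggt
ZNF709: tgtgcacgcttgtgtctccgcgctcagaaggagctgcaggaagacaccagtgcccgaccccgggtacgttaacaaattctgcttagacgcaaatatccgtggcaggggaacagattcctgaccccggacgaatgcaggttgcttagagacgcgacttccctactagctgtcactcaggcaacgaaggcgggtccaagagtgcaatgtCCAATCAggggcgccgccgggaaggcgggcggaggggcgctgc
ZNF780B: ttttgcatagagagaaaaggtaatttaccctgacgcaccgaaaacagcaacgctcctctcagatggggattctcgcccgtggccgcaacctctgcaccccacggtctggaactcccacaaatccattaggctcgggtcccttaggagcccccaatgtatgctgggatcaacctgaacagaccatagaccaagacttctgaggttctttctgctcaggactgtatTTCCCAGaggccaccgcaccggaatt
ZNF850: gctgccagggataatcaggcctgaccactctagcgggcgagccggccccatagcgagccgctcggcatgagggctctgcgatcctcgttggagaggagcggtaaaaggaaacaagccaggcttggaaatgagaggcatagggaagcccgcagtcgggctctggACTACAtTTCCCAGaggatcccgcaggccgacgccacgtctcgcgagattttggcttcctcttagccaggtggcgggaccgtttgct
ZNF180: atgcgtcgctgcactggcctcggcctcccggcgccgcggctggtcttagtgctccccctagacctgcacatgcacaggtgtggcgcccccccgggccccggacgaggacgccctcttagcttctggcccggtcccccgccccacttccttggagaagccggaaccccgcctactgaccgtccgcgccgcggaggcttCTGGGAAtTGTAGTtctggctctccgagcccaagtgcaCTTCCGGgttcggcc
ZNF580: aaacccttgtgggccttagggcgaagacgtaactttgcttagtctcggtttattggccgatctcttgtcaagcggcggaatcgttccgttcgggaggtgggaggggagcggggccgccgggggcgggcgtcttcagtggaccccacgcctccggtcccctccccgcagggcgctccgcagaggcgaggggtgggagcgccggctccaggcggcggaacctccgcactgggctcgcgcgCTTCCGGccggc

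ZNF564 and ZNF709, which rose by 1.06 and 0.96, have a CCAAT box beginning 53 and 43 bases before the start, and ZNF564 has a second one at 90. ZNF345 and ZNF780B have the right part of the ZNF143 motif at 81 and 26 bases before the start. ZNF850 holds the left part at 87 and the right part at 80, and ZNF180 holds the same pair on the other strand with the ETS core nearer the start. ZNF580, which fell, has the ETS core on the minus strand at 12 and none of the other 3 motifs.

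Over all 127 promoters, the left part of the ZNF143 motif was present in 33.1% and the right part in 33.1%, against 8.18% and 9.49% of the 9476 genes in the table with a promoter. The ETS core was present in 31.5%, against 16.1% of all promoters, and the CCAAT box in 18.9%, against 8.74%. In ZNF genes on other chromosomes the left part of the ZNF143 motif was in 13.2% and the ETS core in 31.2%. These motifs were chosen after the promoters were read. Genes that arose by duplication may share promoter sequence, so these promoters need not be independent of each other. The matches are a description, and no test was made.

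Within the chromosome 19 ZNF genes the motifs were counted apart for rises and for genes that did not pass. The left part of the ZNF143 motif was in 12 of 35 promoters of genes that rose (34.3%) and in 29 of 89 of genes that did not pass (32.6%). The form with both parts at a fixed gap, searched as ACTACANNTCCCAG and so made of the parts above, was in 4 of 35 (11.4%) and 17 of 89 (19.1%), against 2.21% of all promoters. The ETS core was in 16 of 35 (45.7%) and 23 of 89 (25.8%), and the CCAAT box in 8 of 35 (22.9%) and 16 of 89 (18.0%). The 3 genes that fell all matched a promoter, of which 1 held the ETS core, 1 the left part and 2 the right part of the ZNF143 motif. As for base composition, the median GC content of the 250 bases was 60.4% for the chromosome 19 ZNF genes and 65.2% for all genes, with a median of 17 and 21 CpG dinucleotides.

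**Figure D5:**
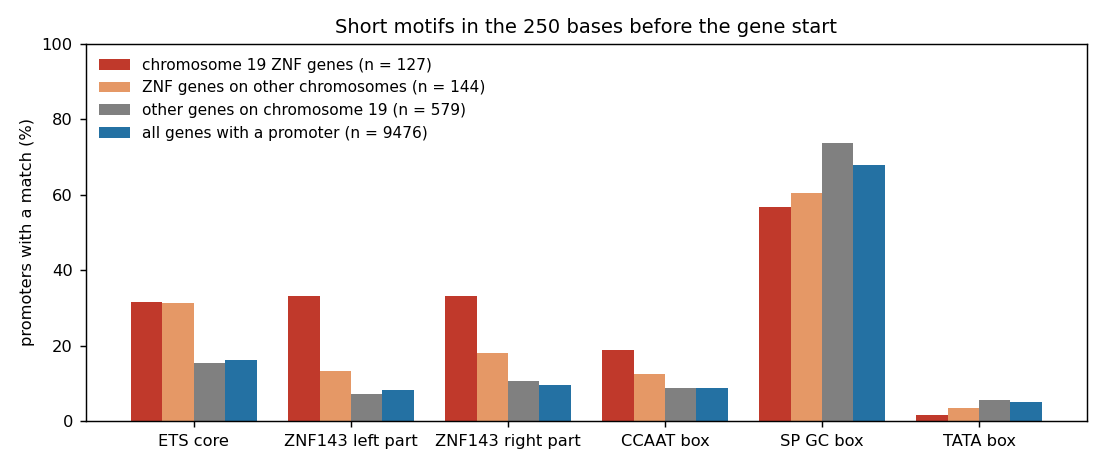
Bars give the percentage of promoters (250 bases before the gene start) with a match on either strand to each of 6 short motifs, for 4 sets of genes. The 127 chromosome 19 ZNF promoters hold each part of the ZNF143 motif in 33.1%, against 8.18% and 9.49% of all promoters, while the SP GC box (GGGCGG) is in 56.7% against 67.9% and the TATA box (spelled TATAAA) in 1.57% against 4.99%.

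Genes of the machinery through which KRAB zinc finger proteins silence were listed apart. Of a list of 34 corepressor and heterochromatin genes 31 were in the table, and 2 rose, 3 fell and 26 did not pass, with a median log2 fold change of -0.03. This is 16.1% called, against 28.0% of all genes, a difference that was not tested. TRIM28 read 9.79 and 9.63 in the knockdown, 9.64 and 9.75 in induced mock cells, and 9.58 and 9.89 in mock cells not induced, and these ranges overlapped. SETDB1 had a difference of 0.02 (SE 0.10), and TRIM28 one of -0.03 (SE 0.10). RBBP7 and RBBP4 encode histone-binding subunits of several chromatin complexes. RBBP7 rose by 0.37 (SE 0.06) and RBBP4 fell by 0.55 (SE 0.11).

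ATF7IP2, a relative of the SETDB1 partner ATF7IP, rose by 0.42 (SE 0.10). That value depends on the probe set, since the mean of its probe sets gave -0.0021. TRIM24, of the same family as TRIM28, fell by 0.40 (SE 0.10) and TASOR, the scaffold of the HUSH silencing complex, by 0.40 (SE 0.11). ATF7IP2, TRIM24 and TASOR lost their calls without single arrays, with limma adjusted p between 0.0549 and 0.158: all 3 without knockdown replicate 1, ATF7IP2 and TASOR without knockdown replicate 2, TRIM24 and TASOR without mock not induced replicate 1, and ATF7IP2 without mock not induced replicate 2. With no intensity trend and all arrays kept, ATF7IP2 and TASOR also lost their calls (limma adjusted p = 0.0582 and 0.053). TASOR moved to -0.27 without mock not induced replicate 1.

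The knockdown was also set against the induced mock cells, a comparison that shares the knockdown arrays with the first and also differs in doxycycline. By limma 40 of 138 chromosome 19 ZNF genes rose, 4 fell and 94 did not pass, and over all genes 28.4% were called, with 14.0% higher and 14.5% lower. The median was 0.23. ZNF559 rose by 1.04, ZNF542P by 1.14, ZNF112 by 1.00, ZNF780B by 0.93, ZNF709 by 0.79 and ZNF564 by 0.78. The 4 genes that fell were ZNF536 (-0.85), ZNF580 (-0.66), ZNF404 (-0.58) and ZNF573 (-0.32). Of the 42 genes that rose against mock cells not induced, 9 did not pass here, among them ZNF85 (0.42, limma adjusted p = 0.2). Some of these calls were lost with 1 array left out. ZNF564 lost its call without either knockdown array (limma adjusted p = 0.0631 and 0.0599) or without mock induced replicate 2 (0.55, limma adjusted p = 0.0857). ZNF709 lost its call without knockdown replicate 1 (limma adjusted p = 0.0512) and ZNF112 without knockdown replicate 2 (limma adjusted p = 0.0528). ZNF580 lost its call without knockdown replicate 2 (limma adjusted p = 0.0872) or mock induced replicate 2 (limma adjusted p = 0.087).

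ZNF320 had the largest difference from the induced mock cells. It read 6.32 and 6.21 in the knockdown, 5.07 and 5.04 in induced mock cells, and 6.20 and 5.92 in mock cells not induced. The induced arrays alone were low, and the knockdown was 1.21 above them (SE 0.15, limma adjusted p = 0.000468) and 0.20 above mock cells not induced (limma adjusted p = 0.358). Its probe set ends in _x_at.

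Induced mock cells were also set against mock cells not induced. LIN28B itself differed by 0.19 (SE 0.08, limma adjusted p = 0.999) and did not pass, so a rise of LIN28B on induction was not established here. Doxycycline and tagged LIN28B also cannot be told apart in this comparison. By limma 0 of the 138 genes and 0.0% of all genes were called, which does not show that they were unchanged. At an unadjusted p under 0.05 there were 6 of 138 and 344 of 11584. The 5 of smallest p were ZNF320 (-1.01, SE 0.15, adjusted p = 0.764 by limma), ZNF17 (-0.49), ZNF829 (-0.32), ZNF574 (-0.34) and ZNF536 (0.29). ZNF829 read 8.47 and 8.21 in the knockdown, 7.61 and 7.63 in induced mock cells, and 8.00 and 7.87 in mock cells not induced, and so was lowest on the induced arrays. It rose by 0.40 (SE 0.11) in the knockdown against mock cells not induced, a call lost without knockdown replicate 1 (0.27, limma adjusted p = 0.185) and without mock not induced replicate 2 (0.34, limma adjusted p = 0.0739).

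The number of rises depends on single arrays. Of the 138 genes 21 rose without knockdown replicate 1 and 24 without replicate 2, while 7.04% and 7.30% of all genes rose in the same fits. Among mock cells not induced, leaving out replicate 1 gave 50 rises and leaving out replicate 2 gave 28, while 1640 and 1390 of all 11584 genes rose. In all 42 genes both knockdown arrays lay above both mock arrays not induced. Their log2 fold changes therefore had to stay above 0 in these 4 fits, whose signs add no support.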

How the data were processed

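RNA of HEK293 cells was hybridised to Affymetrix Human Genome U133 Plus 2.0 arrays, 2 for each of 3 groups. The values are deposited log2 values per probe set, made by the authors with affy and GCRMA per the submitters' processing notes; versions and the rule that kept 13008 probe sets are not given in the sources used here. The base of the logarithm was taken as 2, the base GCRMA returns. GCRMA corrects background by probe sequence and brings arrays to 1 distribution, so a shift shared by all genes would not show. Of the probe sets, 13007 lay above 5 on at least 2 arrays, so a gene low on all arrays was not analysed here. Other probe sets of a gene could read otherwise.

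Single-symbol probe sets (11719, against 609 with several symbols and 680 with none) were named through the platform annotation and updated by gene identifier to RefSeq GRCh38.p14. Genes had to exceed 4 on 2 or more arrays, which removed 0. The test was limma 3.58.1 under R 4.3.3 (lmFit, eBayes with an intensity trend, 3 residual and 6.73 prior degrees of freedom) in 1 model of the 3 groups, two-sided, with Benjamini-Hochberg adjustment over 11584 genes. The number of arrays limits the precision. The test was checked on simulated data. Genes were named by a rule: up to 15 called rises and 15 called falls, 3 uncalled of smallest p, 3 nearest 0, 5 of smallest p in the induction comparison, 3 highest and 3 lowest in level, listed genes with a described role, and up to 6 called corepressor genes. The members and lists were chosen with earlier results of these data known. Alternatives covered scaling, filter, probe sets, trend, arrays in the fit, replicate block, fold minimum and each array left out.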

Additional observations from a re-analysis of the deposited data

How the results depend on the processing

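All counts are by limma. In the knockdown against mock not induced, 42 chromosome 19 ZNF genes rose and 3 fell. These were 26 and 1 without _x_at and _s_at probe sets, and 3 and 0 with a minimum of 2-fold. Against all 4 mock arrays 51 rose and 5 fell, while 16.9% of all genes rose and 17.7% fell. With each array left out the rises ran from 21 to 50 and the falls from 2 to 3, and the median from 0.20 to 0.36, against 0.26. Centred arrays gave 51 and 3, a stricter filter 36 and 2 of 100 genes, no trend 41 and 3, and only the 4 arrays compared 36 and 2. Over all genes the main fit had 13.5% higher and 14.5% lower, and centred arrays 15.8% and 13.2%. The stricter filter had 15.9% and 17.0%, no trend 10.6% and 11.7%, and only the 4 arrays compared 11.7% and 12.4%. Without genes above 5 on fewer than 2 mock arrays, an alternative chosen after seeing the data, 39 rose and 3 fell. In the knockdown against mock induced, 40 rose and 4 fell. These were 26 and 3 without _x_at and _s_at probe sets and 3 and 0 with the 2-fold minimum. The falls were 2 with no trend and 7 with only the 4 arrays compared, and with each array left out the rises ran from 20 to 27 and the falls from 1 to 3. Of all genes 11.6% fell against mock induced with no trend, and 17.0% with only the 4 arrays compared. Fewer genes or arrays enter several of the fits above. Otherwise the cause of the differences between fits was not tested.

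Over all genes, without _x_at and _s_at probe sets 1020 rose and 1109 fell against mock not induced, and 1059 and 1115 against mock induced. With the 2-fold minimum these were 105 and 150, and 100 and 165. In the main fit against mock not induced 1563 rose and 1679 fell. Without genes above 5 on fewer than 2 mock arrays these were 1478 and 1679. With each array left out they ran from 815 to 1640 and from 849 to 1562 against mock not induced, and from 830 to 955 and from 872 to 1154 against mock induced. Induction called 0 genes, and with each array left out 0 to 1 (AKIRIN2, without mock not induced replicate 2).

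With the replicate block 48 chromosome 19 ZNF genes rose and 4 fell against mock not induced, the added fall being ZNF146. Of all genes 14.2% rose and 15.3% fell in that fit. Same-numbered arrays deviated together at r = 0.02, -0.06 and 0.18 for the 3 pairs of groups, so the numbers were not taken as pairs.

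Genes near 0 changed sign, none of them called. ZNF587 had 0.028 when arrays were centred and 0.031 when quantile normalized. With each array left out, ZNF587 ran from -0.19 to 0.19, ZNF576 from -0.017 to 0.031, ZNF615 from -0.16 to 0.18, ZNF558 from -0.14 to 0.24 and ZNF160 from -0.016 to 0.22. ZNF574 had 0.022 against all 4 mock arrays. ZNF17 against mock induced had 0.027 when centred and ran from -0.027 to 0.0096 with each array left out. ATF7IP2, which was called, had -0.0021 as the mean of its probe sets.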

Other observations

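Zinc finger genes of chromosome 19 with other kinds of symbol, and antisense transcripts of ZNF genes, were looked at after their values were seen, in the knockdown against mock not induced. Of 13, 2 rose and 2 fell by limma (15.4% each), close to the 13.5% and 14.5% of all genes. ZIK1, a KRAB zinc finger gene, read 5.69 and 5.57 in the knockdown against 4.70, 4.12, 4.61 and 4.47 on the mock arrays. It rose by 1.09 (SE 0.22). All its mock values lay under 5. Like ZNF345 and ZNF418, it was above 5 on the knockdown arrays only and could be seen only as a rise. ZNF667-AS1, a transcript antisense to the region of ZNF667, read 7.45 and 7.32 in the knockdown against 6.47, 6.46, 6.41 and 6.27 on the mock arrays. It rose by 1.05 (SE 0.12, limma adjusted p = 0.000288), beside the rise of 0.81 in ZNF667 itself. MZF1, a myeloid zinc finger gene, read 6.36 and 6.32 in the knockdown against 7.20, 7.30, 7.09 and 7.31 on the mock arrays, and fell by 0.86 (SE 0.12). ZNF225-AS1 read 5.39 and 5.96 in the knockdown, 5.60 and 5.96 in induced mock cells, and 6.33 and 6.35 in mock cells not induced. It fell by 0.67 (SE 0.20). The knockdown overlapped the induced mock cells, so this was a difference from the mock cells not induced only. ZNF225 had 0.40 and did not pass (limma adjusted p = 0.0721).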
